A study of Mus musculus with 15 samples.

Results

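TAM receptor and efferocytosis genes were read in sorted mouse macrophages, as the genes Mertk, Axl, Tyro3, Gas6, Pros1, Mfge8, Trem2, Tyrobp and Lrp1. They were chosen by name for their roles, and all 9 were found among the 24084 genes of the count table from which the authors had removed DNA reads. The macrophages (F4/80+ CD45+) came ex vivo from mice of strain C57BL/6J, and each sorted sample gave 1 RNA-seq library made for small amounts of input. The 15 libraries form 6 groups by tissue. They are sympathetic nerve-associated macrophages (SAM) of ganglia (SAM ganglia, n = 3) and of nerve fibers dissected from subcutaneous fat (SAM fibers, n = 2), macrophages of subcutaneous fat (sATM, n = 2) and of visceral fat (vATM, n = 2), spleen macrophages (SpM, n = 3) and brain Microglia (n = 3). The labels call the cells of both fat groups anti-inflammatory, name no transgene or drug for any group and give no age. The titles of all 15 libraries carry the letters ND, which the labels do not explain. Ganglia were digested with collagenase and trypsin, fibers with hyaluronidase and collagenase, and fat, spleen and brain with collagenase alone. Tissue and digestion cannot be told apart in comparisons that involve SAM, while sATM, vATM, SpM and Microglia shared 1 digestion. According to the labels 10 mice were dissected, but how they were shared out over the libraries is not stated. All p-values therefore describe variation from library to library, part of which may be technical.

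TAM receptors are receptor tyrosine kinases that bind phosphatidylserine on dying cells through bridging ligands, and macrophages use them to engulf those cells, a process called efferocytosis, and to dampen inflammatory signalling. Gas6 and protein S, the product of Pros1, are their ligands, while the Mfge8 product bridges phosphatidylserine to integrins instead. TREM2 is a lipid-sensing receptor that signals through the adaptor TYROBP, also called DAP12, and is known from microglia, while LRP1 is an endocytic receptor that also takes part in engulfment.

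The promoters of Mertk, Axl and Trem2 are shown because the results on receptors turn on these genes. RefSeq (build GRCm38.p6) gave a promoter for 8 of the 9 genes. Each line is the stretch of 250 bases that ends at the base before the start in the RefSeq promoter table, on the gene's own strand, with motif matches in capitals. For Mertk that start lies upstream of the start in the count table, given with its levels below, and for Axl and Trem2 they are the same. They lie at chr2:128698665-128698914 (plus strand), chr7:25788734-25788983 (minus strand) and chr17:48346151-48346400 (plus strand).
Mertk: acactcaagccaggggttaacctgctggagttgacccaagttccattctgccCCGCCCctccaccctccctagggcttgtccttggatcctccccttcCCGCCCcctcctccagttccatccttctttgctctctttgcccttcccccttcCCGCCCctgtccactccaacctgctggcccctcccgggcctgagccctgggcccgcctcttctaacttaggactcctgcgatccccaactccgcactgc
Axl: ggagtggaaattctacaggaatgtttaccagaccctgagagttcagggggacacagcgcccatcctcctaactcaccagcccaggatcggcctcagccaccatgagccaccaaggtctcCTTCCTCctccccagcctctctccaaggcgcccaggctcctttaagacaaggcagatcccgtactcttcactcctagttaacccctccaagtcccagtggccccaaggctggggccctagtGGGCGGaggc
Trem2: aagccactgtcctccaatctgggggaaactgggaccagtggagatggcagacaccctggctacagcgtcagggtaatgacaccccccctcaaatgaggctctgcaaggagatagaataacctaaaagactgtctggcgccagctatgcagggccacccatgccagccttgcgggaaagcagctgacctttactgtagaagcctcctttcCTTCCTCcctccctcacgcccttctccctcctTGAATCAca
Motifs were searched on both strands in the same window of 32851 mouse promoters. The PU.1 and ETS motif GAGGAAG matched Axl and Trem2, and 10.6% of all promoters. The AP-1 motif TGANTCA matched Trem2, at 1 place that matches on both strands, and 6.75% of all promoters. The GC box GGGCGG matched 7 of the 8 genes, all but Trem2, with 3 matches in Mertk, and 32.7% of all promoters. The TATA box TATAAA matched none of the 8 genes and 12.4% of all promoters. No match overlapped a match of another motif in the promoters printed, and a match describes letters, not binding.

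The corrected table held 2.55 to 12.52 M estimated counts per library, and 12406 to 16838 genes were detected. Marker sums set brain and spleen libraries apart, in keeping with their labels. The 8 microglial markers summed to 14305 to 15437 CPM in Microglia and at most 2153 elsewhere, and the 6 red pulp markers to 8936 to 13774 CPM in SpM and at most 267 elsewhere. The 6 resident adipose markers summed to 1802 to 5986 CPM in sATM and 8248 to 11994 CPM in vATM, against 1306 to 2541 CPM in SAM ganglia, which overlap sATM. The SAM fiber libraries stood apart: their log expression correlated at r = 0.61 with each other, against 0.78 to 0.96 for pairs within the other groups. Every library listed some genes at 0 beside 100 or more raw gene-body counts, so a 0 here is a listed value and may be an estimate that failed.

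Several of these genes differed between tissues, and receptors and ligands had different orders. Spleen macrophages had the highest Mertk, Axl and Lrp1 and the lowest Gas6, Pros1, Mfge8 and Trem2. Microglia had high Mertk, Pros1 and Trem2 and very little Axl. Fat macrophages and SAM fibers had low Mertk, and Tyrobp had the highest level per length in every group. Each comparison set a group, or a pair of groups, against the mean of the others on the log2 scale with edgeR's quasi-likelihood test, and a call needed a Benjamini-Hochberg adjusted p below 0.05 together with a log2 fold change of 1 or more, up or down. Of the 9 genes, 8 passed the filter on low counts and Tyro3 did not. In SpM 7 of the 8 were called, 3 higher and 4 lower, where 12.4% of the 15289 tested genes were called, 6.72% higher and 5.72% lower. In Microglia 4 were called, 3 higher and 1 lower, beside 13.7% of all tested genes, 7.26% higher and 6.47% lower. In SAM 3 were called higher, beside 9.15% (5.71% higher and 3.44% lower; without SAM fibers 2, 1082 genes were higher and 2287 lower), and in fat (sATM and vATM) Mertk was called lower, beside 8.56% (5.66% higher and 2.9% lower). Between SAM fibers and sATM none of the 8 was called by edgeR, beside 4.84% (1.85% higher and 2.99% lower). The median log2 fold change of the 8 was -1.39 in SpM, 0.46 in Microglia, 0.74 in SAM, 0.06 in fat and 0.54 between SAM fibers and sATM, against medians over all tested genes of -0.03, 0.29, 0.02, -0.06 and 0.00 in the same order.

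**Figure D1:**
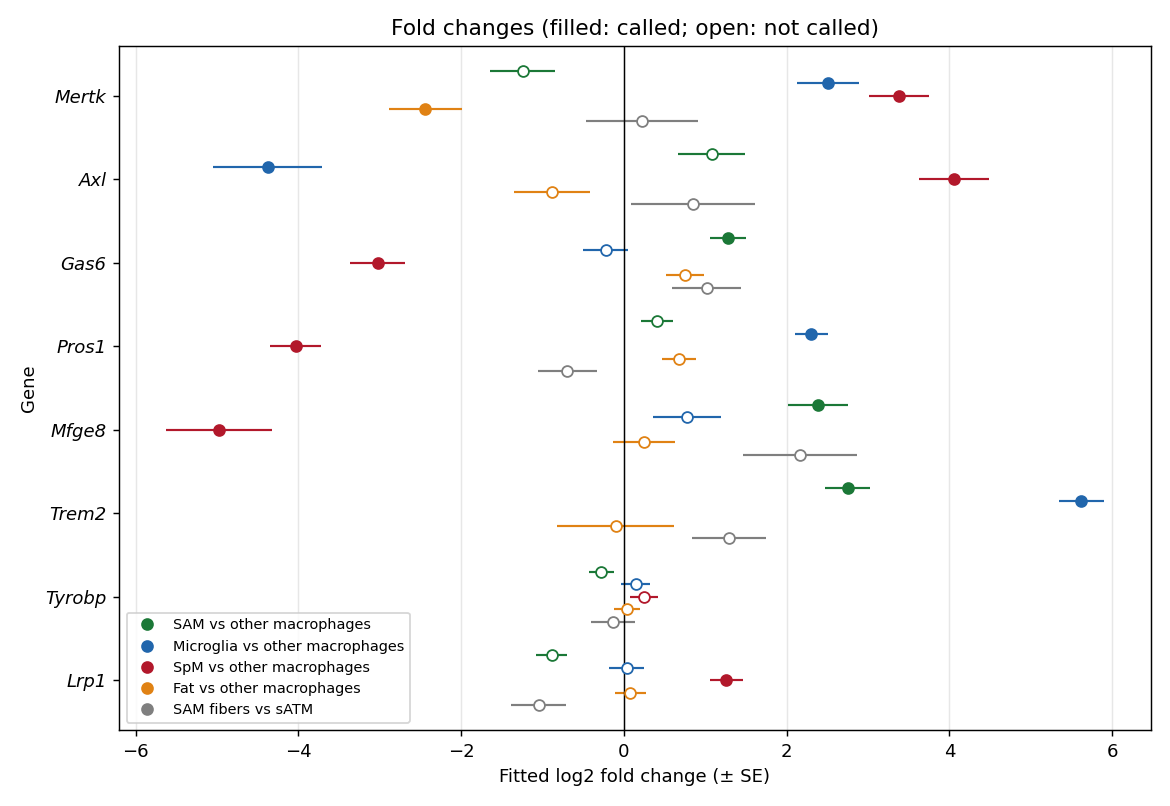
Fitted log2 fold changes (x axis, ± SE of the fit) of the 8 tested genes (y axis) in the 5 comparisons, by colour, with filled points for called genes. For Axl the SpM (4.06) and Microglia (-4.38) points lie on opposite sides of 0, the SpM points of Gas6 (-3.03), Pros1 (-4.03) and Mfge8 (-4.98) lie to the left of the other comparisons, and Tyrobp stays within 0.28 of 0. The SpM value of Trem2 is not drawn, because SpM held 3 counts of it in all.

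Levels below are in CPM, that is estimated counts for each M of the library's TMM-scaled total, given for the libraries of a group in the order of their replicate numbers. Counting error alone sets a floor of 3 counts in a library, or 0.249 to 0.897 CPM. In sorted cells, fewer cells of a type and less RNA per cell cannot be told apart.

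Mertk (chr2:128698997-128802188, plus strand, mm10) encodes the TAM receptor used by resting macrophages for engulfment, and it was highest in spleen and brain. It stood at 352, 442 and 279 CPM in SpM and at 213, 229 and 206 CPM in Microglia. It stood at 45.8, 50.5 and 55.6 CPM in SAM ganglia, 15.2 and 23.7 CPM in vATM, 3.36 and 28.3 CPM in SAM fibers, and 4.26 and 22.5 CPM in sATM. SpM and Microglia lay above every other library and did not overlap each other, ganglia lay in between, and the fat and fiber libraries overlapped. Mertk was higher in SpM than in the other groups (log2 fold change 3.38 ± 0.37 SE, adjusted p = 6.98e-06) and higher in Microglia (2.51 ± 0.38, adjusted p = 1.73e-04), and it was lower in fat (-2.44 ± 0.45, adjusted p = 0.00183). In SAM the fit gave -1.24 ± 0.40 (adjusted p = 0.0564), not called. It was called lower in 6 of 24 alternatives, among them DESeq2 (-1.12, adjusted p = 0.0224) and the fit without SAM fibers 2 (-2.42, adjusted p = 4.83e-04). Among neighbours in the order of groups, Microglia exceeded SAM ganglia (2.09 ± 0.56, adjusted p = 0.0300), while SpM against Microglia gave 0.73 ± 0.54 (adjusted p = 0.562) and SAM ganglia against vATM 1.38 ± 0.64 (adjusted p = 0.465).

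Axl (chr7:25756500-25788733, minus strand), the TAM receptor that depends on GAS6, shared the spleen peak of Mertk but not its level in brain. It stood at 1509 CPM, 1876 CPM and 1417 CPM in SpM. It stood at 390.2, 411 and 388 CPM in SAM ganglia, 124 and 199.5 CPM in SAM fibers, 113 and 120.0 CPM in vATM, and 68.5 and 110.4 CPM in sATM. In Microglia it stood at 18.3, 0 and 17.0 CPM, below every other library. Axl was higher in SpM than in the other groups (4.06 ± 0.43, adjusted p = 4.38e-06) and lower in Microglia (-4.38 ± 0.67, adjusted p = 2.01e-04). SAM ganglia exceeded Microglia by 5.02 ± 0.74 (adjusted p = 3.19e-04), and sATM exceeded Microglia by 2.87 ± 0.71 (adjusted p = 0.0123). SAM ganglia were second in the order, and SpM against SAM ganglia gave 2.01 ± 0.64 (adjusted p = 0.0601). The library listed at 0, Microglia 2, held 208 raw gene-body counts of Axl, 0.898 times the number expected there from the rate over olfactory receptor genes, which macrophages are not known to use.

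The balance of Mertk to Axl, taken per length as a ratio of RPKM values, placed Microglia apart from all other groups. The ratio was 16.7 in both Microglia libraries with Axl above 0. It was 0.275 to 0.326 in SpM, 0.165 to 0.198 in SAM ganglia, 0.0384 to 0.197 in SAM fibers, 0.0879 to 0.282 in sATM and 0.185 to 0.274 in vATM. Axl was thus above Mertk in every library outside the brain and below it in every brain library.

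**Figure D2:**
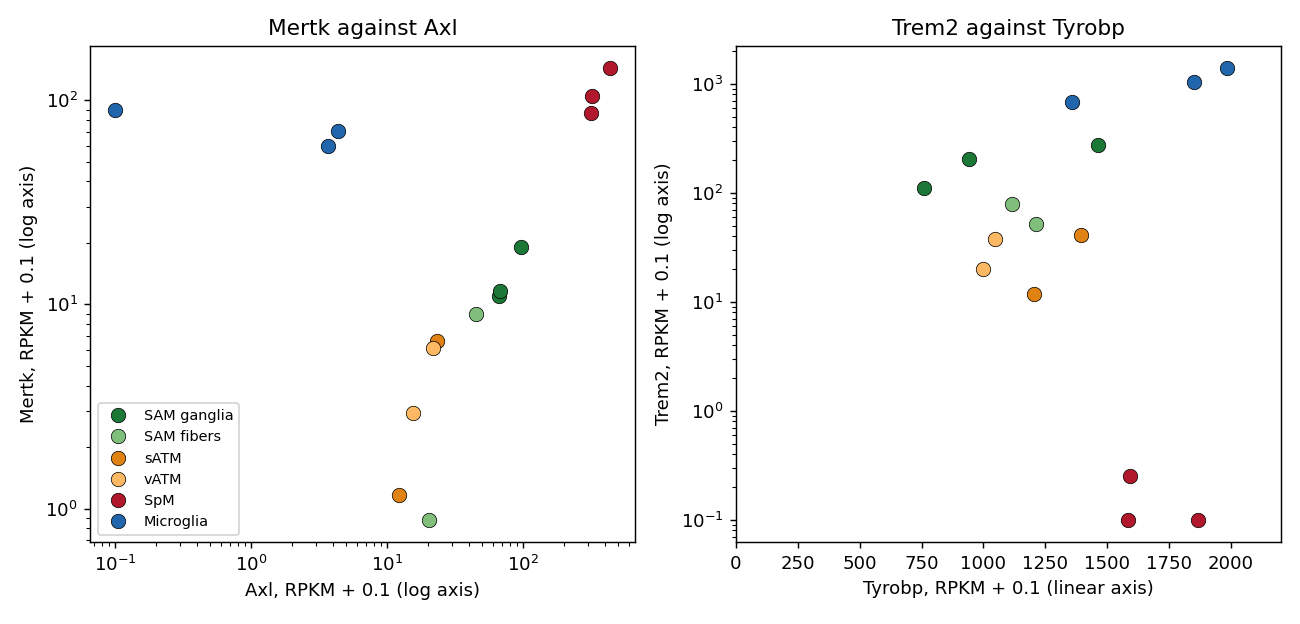
RPKM of Mertk against Axl (left) and of Trem2 against Tyrobp (right), 1 point per library and colour by group, with 0.1 added to each value and log axes except for Tyrobp. Microglia lie high and to the left for Mertk and Axl, and in the right panel Trem2 ranges from 0 to 1381 RPKM while Tyrobp ranges from 760.2 to 1983 RPKM.

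Tyro3 (chr2:119799514-119818103, plus strand), the TAM receptor best known from neurons, was at or near the floor. No library held more than 8 rounded counts of it. Its group means were 0.306 CPM in SAM ganglia, 0.669 CPM in SAM fibers, 0.180 CPM in SpM and 0.335 CPM in Microglia, and it was listed at 0 in every sATM and vATM library. It was not detectable as different between groups at this depth, and it was not tested.

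Gas6 (chr8:13465374-13494535, minus strand), the ligand that binds all TAM receptors, was higher in SAM than in the mean of the other macrophages and scarce in spleen. It stood at 95.9, 112 and 98.3 CPM in SAM ganglia and at 40.4 and 99.1 CPM in SAM fibers. It stood at 133 and 122 CPM in vATM, 48.7, 40.7 and 34.1 CPM in Microglia, 22.4 and 46.1 CPM in sATM, and 10.4, 6.94 and 7.03 CPM in SpM. The fiber libraries spanned the range of sATM to ganglia, vATM lay above all SAM libraries, and SpM lay below every other library. Gas6 rose in SAM (1.28 ± 0.23, adjusted p = 0.00153) and fell in SpM (-3.03 ± 0.34, adjusted p = 8.05e-06). The SAM call was lost when SpM was left out of the groups set against SAM (0.58 ± 0.25, adjusted p = 0.175) and without SAM fibers 2, where the fold change was 0.85. SAM ganglia exceeded Microglia (1.31 ± 0.35, adjusted p = 0.0279), and vATM exceeded Microglia (1.63 ± 0.37, adjusted p = 0.00821).

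Pros1 (chr16:62854307-62929342, plus strand), which encodes protein S, the anticoagulant that also activates MERTK and TYRO3, had another order. It stood at 166, 158 and 162 CPM in Microglia. It stood at 70.6, 84.6 and 66.3 CPM in SAM ganglia, 55.4 and 61.9 CPM in vATM, 51.7 and 64.7 CPM in sATM, 31.4 and 40.4 CPM in SAM fibers, and 4.19, 6.00 and 2.08 CPM in SpM. Microglia lay above and SpM below every other library, and the other 4 groups lay between them. Pros1 rose in Microglia (2.30 ± 0.21, adjusted p = 8.19e-07) and fell in SpM (-4.03 ± 0.31, adjusted p = 1.58e-07). In SAM it gave 0.40 ± 0.20 (adjusted p = 0.193), and -0.67 ± 0.22 with SpM left out (adjusted p = 0.0783). Microglia exceeded SAM ganglia (1.13 ± 0.29, adjusted p = 0.0256), and SAM fibers exceeded SpM (3.11 ± 0.35, adjusted p = 1.40e-05), while SAM ganglia against vATM (0.33 ± 0.33) and vATM against sATM (0.01 ± 0.36) were not called.

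The ligands were thus balanced differently by tissue. The ratio of Gas6 to Pros1 in RPKM was 1.69 to 1.89 in SAM ganglia, 1.64 to 3.13 in SAM fibers, 2.51 to 3.06 in vATM and 1.47 to 4.31 in SpM. It was 0.553 to 0.908 in sATM and 0.268 to 0.374 in Microglia, so Pros1 exceeded Gas6 in these groups alone. The SpM ratio rests on low levels of both genes.

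Mfge8 (chr7:79133768-79149060, minus strand), which encodes the milk fat globule protein that links dying cells to integrins, was highest in SAM and almost absent from spleen. It stood at 14.2, 30.8 and 17.7 CPM in SAM ganglia and at 31.3 and 22.3 CPM in SAM fibers. It stood at 9.79 and 16.2 CPM in vATM, 12.3, 11.0 and 13.7 CPM in Microglia, 4.42 and 7.47 CPM in sATM, and 0.236, 0.959 and 0 CPM in SpM. SAM ganglia 1 lay within the range of vATM, and the other 4 SAM libraries lay above all libraries of the other groups. Mfge8 rose in SAM (2.38 ± 0.37, adjusted p = 4.91e-04), a call lost when SpM was left out (1.26 ± 0.39, adjusted p = 0.0682). It fell in SpM (adjusted p = 4.16e-05), where 12 counts in all were held. The sATM level exceeded that of SpM 15.0-fold by summed counts, with an interval of 8.15 to 30.2 (95%, counting error only).

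Trem2 (chr17:48346401-48352276, plus strand) had the widest range of the 9 genes. It stood at 767 CPM, 1130 CPM and 961 CPM in Microglia. It stood at 147, 285 and 253 CPM in SAM ganglia, 71.2 and 80.8 CPM in SAM fibers, 33.5 and 46.5 CPM in vATM, 15.2 and 46.2 CPM in sATM, and 0.149, 0.125 and 0 CPM in SpM. Microglia, SAM ganglia, SAM fibers and the fat groups followed each other with no overlap except between vATM and sATM, and SpM was at the floor. Trem2 rose in Microglia (5.62 ± 0.27, adjusted p = 1.08e-09), and by 3.80 ± 0.27 with SpM left out (adjusted p = 8.94e-08), where 15.1% of all tested genes were called. It fell in SpM (adjusted p = 1.33e-08), and no fitted fold is given there, since SpM held 3 counts. By summed counts sATM exceeded SpM 338-fold (115 to 1647) and Microglia exceeded SpM 8189-fold (2802 to 39711; 95%, counting error only). Raw gene bodies in SpM held 8, 21 and 28 counts of Trem2, against 4.23, 17.5 and 27.1 expected from the olfactory receptor rate.

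In SAM the call for Trem2 depended on the spleen. The fit gave 2.75 ± 0.28 (adjusted p = 6.53e-06), and with SpM left out of the other groups it gave 0.32 ± 0.27 (adjusted p = 0.453). SAM ganglia exceeded sATM (2.88 ± 0.46, adjusted p = 0.00234) and vATM (2.51 ± 0.45, adjusted p = 0.00647) and lay below Microglia (-2.06 ± 0.38, adjusted p = 0.00208). Fat, in turn, was lower than the rest with SpM left out (-2.85 ± 0.32, adjusted p = 2.32e-05, beside 9.45% of all tested genes called), against -0.10 ± 0.72 with it (adjusted p = 0.966). SAM ganglia against SAM fibers gave 1.59 ± 0.43 (adjusted p = 0.0501), and SAM fibers against vATM 0.92 ± 0.45 (adjusted p = 0.237).

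Tyrobp (chr7:30413788-30417579, plus strand), the adaptor that TREM2 shares with many other myeloid receptors, had group means that were not told apart. They were 612 ± 93.0 CPM in SAM ganglia, 694 ± 185 CPM in SAM fibers, 759.9 ± 4.44 CPM in sATM, 747 ± 132 CPM in vATM, 857 ± 54.0 CPM in SpM and 806 ± 44.8 CPM in Microglia (SD). None of the 5 comparisons and none of the 15 pairs of groups called it, and the largest fold change of the comparisons was -0.28 ± 0.15 in SAM (adjusted p = 0.236). The ratio of Trem2 to Tyrobp in RPKM was 0.502 to 0.696 in Microglia, 0.146 to 0.216 in SAM ganglia, 0.0425 to 0.0701 in SAM fibers, 0.0200 to 0.0356 in vATM, 0.00974 to 0.0296 in sATM and at most 9.42e-05 in SpM. The adaptor was thus highest in SpM by mean CPM, where the receptor was at the floor.

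Lrp1 (chr10:127538158-127621148, minus strand) was highest in spleen and lowest in SAM fibers, with 125 to 367 CPM outside SpM. It stood at 545, 571 and 788 CPM in SpM, above every other library. It stood at 340.3 and 316 CPM in sATM, 278, 308 and 354 CPM in Microglia, 318 and 299.5 CPM in vATM, 214, 367 and 200.5 CPM in SAM ganglia, and 125 and 192 CPM in SAM fibers. Lrp1 rose in SpM (1.26 ± 0.20, adjusted p = 2.79e-04). In SAM the fit gave -0.89 ± 0.19 (adjusted p = 0.00754), below the fold change asked for, and it was called without SAM fibers 2 (-1.09) and without SAM ganglia 2 (-1.05). Among neighbouring groups none was called for Lrp1, with SpM against sATM at 0.95 ± 0.31 (adjusted p = 0.0767).

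**Figure D3:**
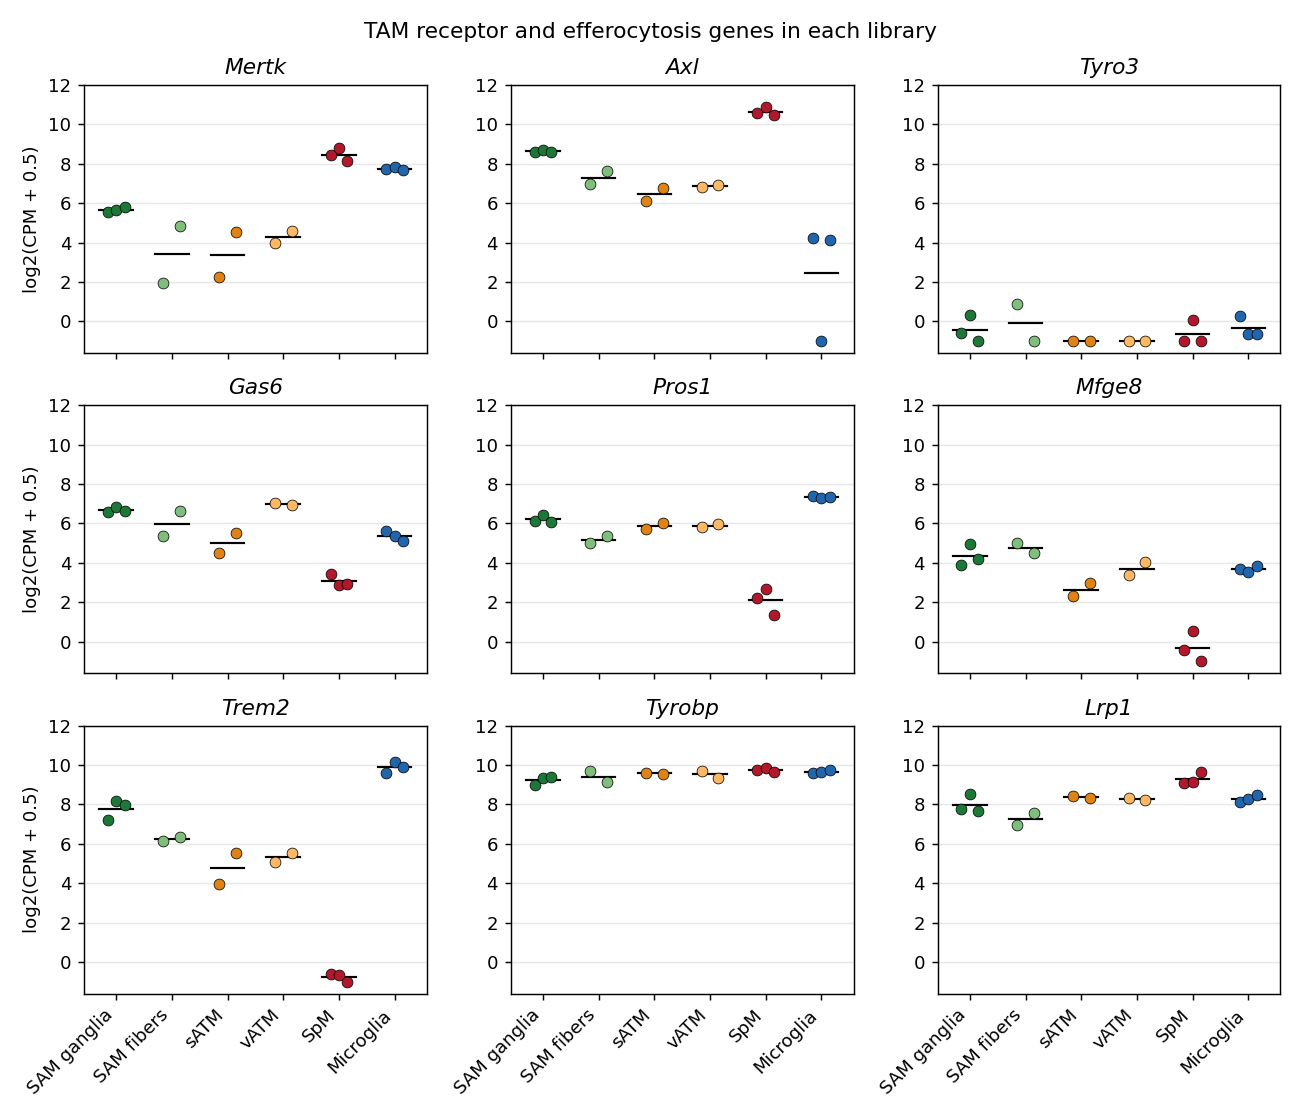
Level of each of the 9 genes in each library, as log2(CPM + 0.5) on the y axis, by group on the x axis, with points for libraries and lines for group means on this scale. SpM stands highest for Mertk and Axl and lowest for Gas6, Pros1, Mfge8 and Trem2, Microglia stand highest for Trem2 and Pros1, and Tyro3 lies at the bottom in all groups.

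Per length, Tyrobp led in every group, at 1022 RPKM in vATM to 1730 RPKM in Microglia. Trem2 was second in Microglia (1031 ± 350.1 RPKM, SD), SAM ganglia (196 ± 81.2), SAM fibers (64.9 ± 18.9) and sATM (26.5 ± 20.9), Gas6 in vATM (38.3 ± 5.59) and Axl in SpM (358 ± 70.0). The last place was held by Tyro3 except in SpM, where Trem2 was last, at 0.150 RPKM in SpM 1 and 0 in the others. The RPKM table used another transcript than the count table for Axl, Tyro3, Mfge8 and Trem2, so its levels for these genes refer to slightly different lengths.

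**Figure D4:**
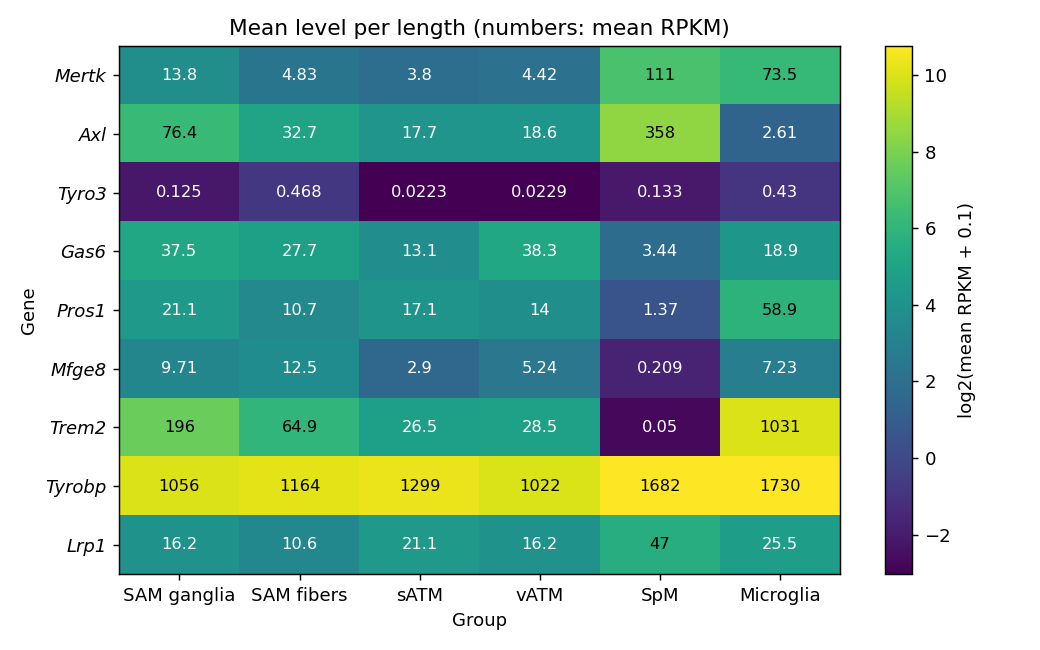
Mean RPKM of the 9 genes (rows) in the 6 groups (columns), with the value printed in each cell and colour on a log2(RPKM + 0.1) scale. Axl exceeds Mertk in 5 groups and falls to 2.61 RPKM in Microglia, where Mertk stands at 73.5 RPKM.

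The labels of the study set SAM at its centre, and for these genes the SAM result rested on which groups they were set against. With SpM left out, Gas6, Mfge8 and Trem2 were no longer called and Axl was called higher (2.33 ± 0.46, adjusted p = 0.00561), beside 5.8% of all tested genes. With SpM in, Axl gave 1.08 ± 0.41 (adjusted p = 0.102). Marker sums of Schwann and satellite glia, fibroblasts, sympathetic neurons and erythroid cells were highest in SAM fibers. For the first and last of these, SAM ganglia overlapped another group. The 6 lymphocyte markers were instead highest in SpM, at 18.3 to 19.3 CPM against at most 11.6 CPM elsewhere. The 7 central glia markers summed to 84.5 to 126 CPM in SpM and 94.8 to 145 CPM in Microglia. They summed to 18.1 to 57.0 CPM in SAM ganglia and 56.7 to 137 CPM in SAM fibers. The 10 Schwann and satellite glia markers summed to 207 to 360 CPM in SAM ganglia and 713 to 714 CPM in SAM fibers, where Erbb3 was at 0, against 77.4 to 121 CPM in sATM, 177 to 205 CPM in vATM, 5.12 to 13.2 CPM in SpM and 344 to 395 CPM in Microglia. The 8 fibroblast markers summed to 42.7 to 54.4 CPM in SAM ganglia and 170.0 to 247 CPM in SAM fibers, where Pdgfra was at 0, and to at most 27.3 CPM elsewhere. The 10 sympathetic neuron markers summed to 99.7 to 137 CPM in SAM ganglia and 257 to 710.2 CPM in SAM fibers, and to at most 54.6 CPM elsewhere. The 5 erythroid markers summed to 640.4 to 895 CPM in SAM ganglia and 1659 to 4640.3 CPM in SAM fibers, against 139 to 371 CPM in sATM, 24.6 to 54.8 CPM in vATM, 206 to 646 CPM in SpM and 92.1 to 142 CPM in Microglia. The part of these cells in Gas6, Pros1, Mfge8 and Axl was not tested.

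SAM fibers and sATM come from the same depot, and no member was called between them. By an unadjusted p below 0.05 there were 4, namely Mfge8 (2.16 ± 0.70, adjusted p = 0.0918), Trem2 (1.29 ± 0.46, adjusted p = 0.122), Gas6 (1.02 ± 0.42, adjusted p = 0.184) and Lrp1 (-1.05 ± 0.34, adjusted p = 0.0893). How many of all tested genes lay below that unadjusted threshold was not counted, so these 4 are not read as a difference. DESeq2 called 3 of them higher: Gas6 (1.27, adjusted p = 0.0172), Mfge8 (2.49, adjusted p = 0.00203) and Trem2 (1.60, adjusted p = 0.0123). It called 1730 genes in all there, 982 higher and 748 lower. Fiber and sATM libraries did not overlap for Mfge8, Trem2, Lrp1, Axl and Pros1, and they overlapped for Mertk, Gas6 and Tyrobp. With 2 libraries on each side a lack of overlap says little, and its share over all tested genes was not counted. Without SAM fibers 2, which leaves SAM fibers 1 alone in its group, the log2 fold change was 2.32 for Mfge8 and -1.45 for Lrp1. The groups hold 2 libraries each, which limits what can be detected.

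DNA background differed between libraries and was highest in SAM fibers 1. Olfactory receptor genes held 1233 raw counts per M in SAM fibers 1, 857 in SAM ganglia 3, 686 in SAM fibers 2 and 1085 in Microglia 2, against 32.9 in vATM 1. In SAM fibers 1 the raw gene bodies of the 8 tested genes held 1.23 to 62.6 times the counts expected at that rate, with a median of 1.41. For Mertk there 2781 raw counts stood against 1880 expected, and the corrected table kept 11.2 counts, or 0.404% of the raw ones, against 4.86% to 23.1% in the other libraries. The part of DNA and of its removal in the 3.36 CPM of Mertk there was not tested. Axl was at 1.74 times and Trem2 at 4.48 times the expected counts in the same library. Genes with at least 100 raw counts that were listed at 0 made up 40.0% in SAM fibers 1 and 3.99% in vATM 1. A fit on the raw gene-body counts kept the calls of Axl and Trem2 in Microglia and of Mertk, Axl, Pros1 and Trem2 in SpM. The other calls missed the threshold there with log2 fold changes of differing size. In SAM they were 0.15 for Gas6, 0.86 for Mfge8 and 0.95 for Trem2. In Microglia they were 1.63 for Mertk and 1.98 for Pros1 (adjusted p = 0.0594), in SpM -2.07 for Gas6, -1.94 for Mfge8 and 1.38 for Lrp1, and in fat -1.57 for Mertk, so that the value for Lrp1 was no smaller than with the corrected counts.

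**Figure D5:**
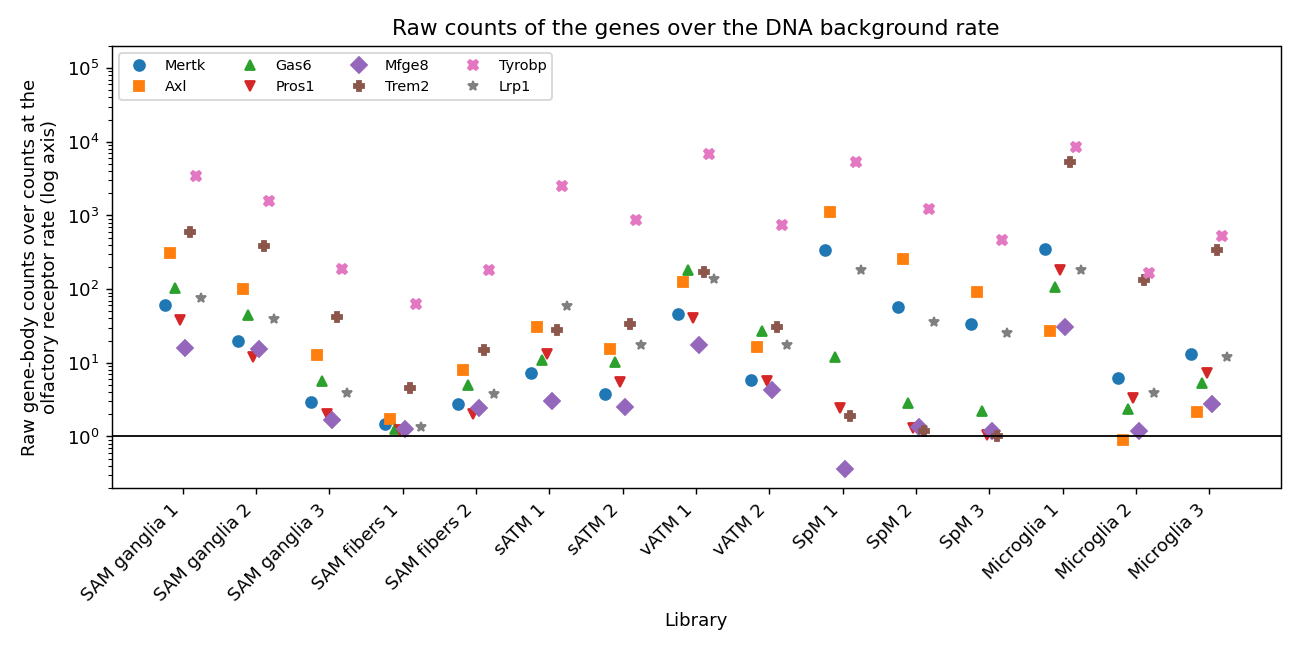
Raw gene-body counts of the 8 tested genes over the counts expected from the olfactory receptor rate (y axis, log scale), for each library (x axis), with the line at 1. The points of SAM fibers 1 crowd toward the line with a median of 1.41, those of vATM 1 have a median of 132, and Trem2, Mfge8 and Pros1 approach the line in SpM.

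Neighbouring groups were set for each gene by its own group means, and the share over all genes so ordered was not counted. The shares given here are for fixed pairs of groups. Over the orders of the 8 tested genes, 8 of 40 pairs of neighbouring groups were called, where between 0.0392% (sATM against vATM) and 16.8% (SAM fibers against SpM) of all tested genes were called in a pair. For SAM ganglia this share was 4.11% against SAM fibers, 2.68% against sATM, 1.85% against vATM, 9.56% against SpM and 6.93% against Microglia. For SAM fibers it was 5.14% against vATM and 16.4% against Microglia, for sATM 8.76% against SpM and 11.7% against Microglia, for vATM 8.7% against SpM and 10.7% against Microglia, and for SpM 11.1% against Microglia. Over all 15 pairs of groups Trem2 was called in 11, Pros1 in 9, Mertk, Axl and Gas6 in 8 each, Mfge8 in 5, Lrp1 in 3 and Tyrobp in none. Between sATM and vATM none of the 8 was called by edgeR, in a pair that called 6 genes in all.

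Likeness in pattern was measured as Pearson's r of log2(CPM + 0.5) over the 15 libraries, which share depth and DNA background, among 4030 genes with a group mean of at least 30 CPM. Among the 3 most alike to Trem2 were Chst7 (r = 0.98) and Rnase4 (0.98), and among those to Mertk were Tpp1 (0.95) and Lap3 (0.95). For Axl the 3 were Sash1 (0.95), Gpr65 (0.92) and Dse (0.92). For the ligands they were Slamf9 (0.96), Nt5dc2 (0.96) and Dhrs3 (0.95) with Gas6, Plxdc2 (0.98), Susd3 (0.98) and P2ry6 (0.97) with Pros1, and Serpinf1 (0.96), C3ar1 (0.96) and Tmem176b (0.95) with Mfge8. Tyrobp had no close match (Slc10a3, 0.83; Cenpo, 0.79; Degs2, 0.79), and Lrp1 was nearest to Ppp1r13b (0.94), Erlin2 (0.92) and Pde4dip (0.92). Among the members r was 0.95 for Pros1 and Trem2 and 0.87 for Gas6 and Mfge8, against 0.05 for Mertk and Axl and -0.35 for Trem2 and its adaptor Tyrobp.

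Other genes of engulfment, 104 in 7 lists with 95 tested, were described by the same calls. In SpM 21 were higher and 15 lower (37.9%, median log2 fold change 0.15), in Microglia 20 and 22 (44.2%, median -0.26), in SAM 13 and 6 (20.0%, median -0.10), in fat 13 and 10 (24.2%, median 0.18), and between SAM fibers and sATM 5 and 6 (11.6%, median -0.46). These shares stand beside 12.4%, 13.7%, 9.15%, 8.56% and 4.84% of all tested genes in the same order, and the medians beside the medians over all tested genes given above. Setting genes at 0 on a side to 3 counts over that side moved the last median to -0.44 and left the others as they were. The lists were drawn up with earlier results of these data known.

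Apoptotic cell receptors differed by tissue. The clearance receptor Stab2 averaged 236 CPM in SpM and under 1 CPM in every other group, and its relative Stab1 averaged 2.34 CPM in SpM, against 468 CPM in SAM ganglia (-6.14 ± 0.53 in SpM, adjusted p = 4.68e-07). The scavenger receptor Cd36 averaged 334 CPM in SAM fibers and 174 CPM in SAM ganglia, 194 CPM in sATM and 417 CPM in vATM, and 3.94 CPM in SpM and 3.95 CPM in Microglia. It rose in SAM (2.85 ± 0.23, adjusted p = 6.27e-07) and in fat (3.20 ± 0.23, adjusted p = 2.22e-07). The integrin subunit Itgb5, a partner for the Mfge8 product, rose in Microglia (2.81 ± 0.19, adjusted p = 4.95e-08) and fell in fat (-2.90 ± 0.24, adjusted p = 6.95e-07). Of this list's 19 tested genes, 4 rose and 1 fell in SAM, 4 rose and 6 fell in Microglia, and 6 rose and 3 fell in SpM. In fat 2 rose and 4 fell, so Cd36 went against most of the called genes there, as did Itgb5 in Microglia and Stab1 in SpM.

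Some bridging and signalling genes moved as well. Apoe, a lipid carrier that TREM2 can bind, rose in SAM (2.44 ± 0.21, adjusted p = 1.25e-06), at 27011 CPM in SAM ganglia and 10628 CPM in SAM fibers against 690.0 CPM in Microglia, where it fell (-3.59 ± 0.32, adjusted p = 8.19e-07). Lgals3, a galectin, rose in fat (2.84 ± 0.21, adjusted p = 2.42e-07) and fell in Microglia (-5.30 ± 0.35, adjusted p = 4.48e-08). Of the 12 tested genes of the bridging list, 3 rose and 6 fell in Microglia. In SAM 4 rose and 0 fell, and in fat 5 rose and 2 fell. Siglech, a receptor that signals through TYROBP, rose in Microglia (5.69 ± 0.24, adjusted p = 3.15e-10) and in SAM fibers against sATM (3.42 ± 0.46, adjusted p = 0.00118). Cd300ld, of the same list, fell in Microglia (-4.69 ± 0.37, adjusted p = 2.02e-07). Of the 16 tested genes of this list of TREM2 and TYROBP signalling, 4 rose and 2 fell in Microglia. In SAM 2 rose and 0 fell, and between SAM fibers and sATM 1 rose and 1 fell. Socs3, an inhibitor of cytokine signalling, rose in SAM (3.79 ± 0.24, adjusted p = 5.04e-08), with 282.8 ± 123 CPM in SAM fibers and 71.9 ± 26.5 CPM in SAM ganglia (SD), against 1.96 to 35.4 CPM in the other group means. Of the 9 tested genes of its list, on TAM and LRP1 shedding and regulation, 2 rose and 0 fell in SAM.

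Among genes of digestion and lipid export, 4 called ones stood highest in spleen or brain. Nr1h3, the oxysterol-sensing LXR alpha receptor, averaged 218 ± 33.0 CPM in SpM (SD) and at most 7.54 CPM elsewhere, and it was listed at 0 in all Microglia libraries beside 15, 67 and 83 raw counts. Its target Abcg1, a cholesterol exporter, rose in SpM (2.74 ± 0.26, adjusted p = 1.35e-06) and fell in SAM (-2.45 ± 0.30, adjusted p = 4.83e-05) and in SAM fibers against sATM (-2.92 ± 0.50, adjusted p = 0.00418). The lysosomal proteases Ctsd (3.08 ± 0.27, adjusted p = 7.23e-07) and Lgmn (2.35 ± 0.19, adjusted p = 3.43e-07) rose in Microglia. Of this list's 20 tested genes, 6 rose and none fell in SpM by the same edgeR test, and 5 rose and 3 fell in Microglia. Among genes of do-not-eat-me signals and their receptors, Sirpa rose in SpM (1.79 ± 0.16, adjusted p = 6.11e-07) and in Microglia (1.44 ± 0.16, adjusted p = 8.55e-06). It fell in fat (-1.05 ± 0.17, adjusted p = 5.26e-04). Of the 7 tested genes of that list, 3 rose and 1 fell in SpM. In Microglia 1 rose and 3 fell, and in fat 2 rose and 1 fell, so Sirpa went against most of the called genes there.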

How the data were processed

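RNA was measured in 15 libraries of sorted macrophages. The submitters' processing notes name STAR, HOMER and the build mm10, with no role; their versions and settings, and whether strand was used, are not stated. The authors deposited estimated counts per gene after removing DNA reads (24084 genes), raw counts over whole gene bodies (24525 genes) and RPKM values (24414 genes), per the file headers. How DNA reads were removed is not stated. Rounded estimated counts went into edgeR 4.0.16 (R 4.3.3): filterByExpr with a minimum count of 10 (15289 genes kept), TMM scaling, 1 mean per group over all 15 libraries, quasi-likelihood F-tests and Benjamini-Hochberg adjustment over all genes tested. Groups on a side were weighted equally on the log scale. The common biological coefficient of variation was 0.680. The 5 comparisons and 15 pairs of groups share libraries. Expected DNA counts are olfactory receptor raw counts per kilobase times gene span. The fit was also run on simulated counts drawn with its own estimates of variation. They held no DNA background, so they could not show errors from it, and the outcome is not reported here.

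The members and the lists were chosen with earlier results of these data known. Named genes are the members, up to 3 called genes with the smallest p per list and comparison, from which the text gives some, and the 3 genes most alike to each member. A few of the genes so named were left out and are not reported here. Raw-count, RPKM (limma 3.58.1), DESeq2 1.42.0, scaling, filter and replicate block alternatives were run, libraries were left out in turn, and leaving SpM out of the other side was added after seeing the data. Totals were 2.55 to 12.52 M estimated counts per library, and intervals and floors cover counting error only.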

Additional observations from a re-analysis of the deposited data

How the results depend on the processing

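Of 952 values of the 8 tested genes under alternatives, 919 kept their call, 20 gained one and 13 lost one, and no called value changed sign. The calls of Axl and Trem2 in Microglia and of Mertk, Axl, Pros1 and Trem2 in SpM were kept in every alternative run. Raw gene-body counts, which keep DNA and introns, called far fewer. They gave 17 genes, 0 members and 0 pathway genes in SAM (2258, 3 and 34 at an unadjusted p below 0.05 in edgeR), 325, 2 and 11 in Microglia, 585, 4 and 21 in SpM, 376, 0 and 14 in fat, and 0, 0 and 0 between SAM fibers and sATM (2854, 2 and 34 unadjusted), with 1 neighbouring pair called. With SpM left out of the other side, an alternative chosen after seeing the data, SAM had 887 genes and 1 member called, and fat had 2 members called. Fat also had 2 with log2(RPKM + 1).

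Between SAM fibers and sATM the counts moved most. DESeq2 called 1730 genes, 3 members and 18 pathway genes, log2(RPKM + 1) called 1258 genes and 1 member, log2(RPKM + 0.1) called 5 pathway genes and, with no filter, 4, with 5 neighbouring pairs. The 4 libraries alone called 0 genes and 0 pathway genes with edgeR (1539 and 16 unadjusted). The main counts were 740 genes, 0 members and 11 pathway genes. RLE scaling moved the median of all genes from 0.00 to 0.28 there, from 0.02 to 0.19 in SAM and from -0.06 to -0.17 in fat, and kept every member's call. The share of calls that were higher was 57.1% under RLE and 56.8% under DESeq2 against 38.2% between SAM fibers and sATM, and 48.2% under DESeq2 against 66.1% in fat. With log2(RPKM + 0.1) it was 49.2% against 62.4% in SAM, 63.2% against 52.9% in Microglia, 43.6% against 66.1% in fat and 49.2% against 38.2% between SAM fibers and sATM. The cause of these moves was not tested.

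Replicate numbers in the labels are shared between groups, and what they mark is not stated. Same-numbered libraries of different groups correlated in their deviations from group means at -0.38 to 0.64 over 33 pairs (median 0.10, 16 above 0.1). Pairs with different numbers gave -0.54 to 0.43 over 60 pairs (median -0.07, 21 above 0.1). For 9 of 15 libraries the mean correlation was highest with libraries of their own number. In every group but SAM fibers, the olfactory receptor rate was lowest in replicate 1. Whether replicate numbers mark a batch was not tested. With a replicate block, 1 member (Trem2, 1.44, adjusted p = 0.0436) was called between SAM fibers and sATM and Mertk was called lower in SAM (-1.31, adjusted p = 0.0264); no other member's call changed.

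Leaving out 1 library at a time gave 897 to 3369 genes, 3 to 4 members and 17 to 26 pathway genes in SAM, 1606 to 2962, 4 to 4 and 39 to 45 in Microglia, 1437 to 2860, 7 to 7 and 32 to 39 in SpM, 850 to 2483, 1 to 2 and 16 to 27 in fat, 266 to 2979, 0 to 2 and 4 to 24 between SAM fibers and sATM, and 5 to 12 neighbouring pairs. Without SAM fibers 2 the genes called were 3369 in SAM, 2860 in SpM, 2483 in fat and 2979 between SAM fibers and sATM, and the share of them that were higher was 32.1% against 62.4% with it in SAM, 69.4% against 54% in SpM, 79.4% against 66.1% in fat and 15.6% against 38.2% between SAM fibers and sATM. Without SAM fibers 1 the last share was 53.7%, and without sATM 1 it was 26.1%. Without vATM 2 they were 897 in SAM, 850 in fat and 410 between SAM fibers and sATM, without vATM 1 869 in fat and 411 in that pair, and without SAM fibers 1, sATM 1 and sATM 2 they were 471, 372 and 266 in that pair. Members called in fat became 2 without Microglia 2 (Axl lower) and without sATM 1 (Gas6 higher). Pathway genes called between SAM fibers and sATM were 7 without Microglia 3 or SpM 3, 5 without SAM fibers 1, 24 without SAM fibers 2, and 4 without sATM 2, vATM 1 or vATM 2, and neighbouring pairs were 5 without sATM 2. Groups of 2 libraries, depth and DNA background limit what can be detected.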
